A study of Mus musculus with 8 samples.

Results

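The proteasome genes of the mouse intestinal epithelium were read from a table of 3′ tag counts, as the protein-coding genes whose symbol is Psm with a letter from a to g and a number, or is Pomp. The rule matched 51 of 54532 genes in the table, and 49 of them had at least 20 counts summed over the 8 libraries and are described here. Of these 49, 47 passed the filter on low counts and were tested for a difference between genotypes. Psme2b with 20 counts and Psmc3ip with 45 counts in all were not tested, and Psma8 and Psmb11 had 0 counts in every library. Psmc3ip matches by its name only, as it encodes a meiotic recombination factor and not a proteasome component. Psma8 and Psmb11 encode subunits known from the testis and the thymus, respectively.

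The proteasome is the protease that degrades ubiquitin-tagged proteins. Its 20S core is a barrel of α rings around β rings, with catalytic sites on Psmb5, Psmb6 and Psmb7, and it is built with the help of dedicated chaperones (Psmg1 to Psmg4 and Pomp). The 19S particle has a base of ATPases (Psmc genes) that unfolds substrates and a lid that removes ubiquitin, and after interferon the subunits Psmb8, Psmb9 and Psmb10 can replace the catalytic ones, which alters the peptides made for antigen presentation. In the intestine, dividing cells of the crypts give rise to the absorptive cells of the villi.

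Epithelial cells were isolated from the intestine of lactating dams at lactation day 5, from 4 WT mice and 4 Rank-knockout mice, with 1 library each. Rank (Tnfrsf11a) is the receptor of the cytokine RANKL, and the study asked what its loss in the intestinal epithelium changes during lactation. Per the study's methods, the Rank-knockout mice carried floxed Rank alleles deleted by Cre under the Villin1 promoter, which is active in the epithelium of the gut, the WT dams were littermates without the deletion, all were on a C57BL/6J background, and all had been mated with wild-type males. The sources used here give an age range for the mice of the whole study but not the age of these dams, and the labels name the genotypes as WT and Rank-knockout only.

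Total counts ran from 1530781 to 4335653 per library, the deepest being WT 2 and Rank-knockout 1. Tnfrsf11a itself had 61 to 196 counts in the WT libraries (41.3 to 76.8 CPM) and 79 to 179 in the Rank-knockout libraries (27.0 to 46.8 CPM), and the groups overlapped. Tags come from the 3′ end, which may be outside the deleted exons, so these counts do not check the labels. CPM stands for counts per 1000000, here scaled to library sizes adjusted by the trimmed mean of M values (TMM). Epithelial markers were present in every library, with 9826.7 to 10834.5 CPM in sum over 9 genes in WT and 7810.2 to 9691.1 in Rank-knockout. Of these 9 genes, 3 were called higher and 3 lower in Rank-knockout, beside 15.8% and 14.6% of all genes tested.

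Proteasome transcripts took a larger share of the counts in Rank-knockout. The 49 described members together made up 0.607 to 0.746% of all counts in the WT libraries and 0.922 to 1.02% in the Rank-knockout libraries. On the CPM scale, their sum was 7050, 8136, 7881 and 6476 in WT 1 to 4 and 9288, 9154, 8815 and 8670 in Rank-knockout 1 to 4, which is 7386 ± 763 (SD, n = 4) against 8982 ± 288 (SD, n = 4). The lowest Rank-knockout library was above the highest WT library.

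Among the 47 members tested, 13 were called higher in Rank-knockout (27.7%) and 0 lower at an adjusted p under 0.05 in edgeR's quasi-likelihood test, while 15.8% of all 9855 genes tested were called higher and 14.6% lower. DESeq2 called 13 higher and 0 lower and limma-voom 17 higher and 0 lower, beside 11.7% and 14.6% of the genes each tested called higher. At an unadjusted p under 0.05 in edgeR 27 members were higher and 0 lower, beside 21.8% of all genes higher. The member median of the log2 fold change was 0.37, beside 0.02 over all genes tested, and 46 of 47 members were above 0, beside 51.7% of all genes. The values of the 2 genotypes did not overlap for 17 members that were higher in Rank-knockout and for 1 that was lower, Psmd10, beside 14.4% and 14.3% of all genes. Most of the differences were small, and 2 members, Psmg3 and Psmg4, were called with a log2 fold change above 1, which 5.68% of all genes were.

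The number of calls rested on the scaling and on single libraries. With library totals in place of TMM factors, 34 members were called higher, and 31 were called with totals that omit the 50 top genes, beside 26% and 22% of all genes. These scalings also raised the median of all genes, by 0.20 and 0.13 on the log2 scale, and the share of higher genes among all calls went from 52.0% to 74.9% and 68.1%. Relative to the median of all genes, the members' median was 0.34 higher under TMM and under each of these 2 scalings. Without WT 4 the count of members called higher was 6, and without Rank-knockout 2 it was 8, beside 10% and 12.8% of the genes tested in those fits. The calls of Psmg2, Psmg3, Psmg4 and Psmb7 were kept in each of the 17 alternative fits, and those of Psmg1 and Psmd5 in each one but the fit on libraries thinned to the shallowest.

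Genes of dividing crypt cells and of villus enterocytes moved with genotype in the same libraries. All 16 tested crypt cell cycle markers, of 17 listed, were called higher in Rank-knockout, beside 15.8% of all genes. Their median log2 fold change was 1.21, and their summed level was 495 to 773 CPM in WT and 1103 to 1903 in Rank-knockout. Of 13 villus enterocyte markers, 12 were called lower, beside 14.6% of all genes. Their median was -1.26, with a summed level of 24087 to 33239 CPM in WT and 10884 to 15074 in Rank-knockout. None of either list was at 0 in all libraries. Their part in the proteasome differences was not tested, and in such bulk samples fewer cells of a type and less RNA per cell cannot be told apart.

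**Figure D1:**
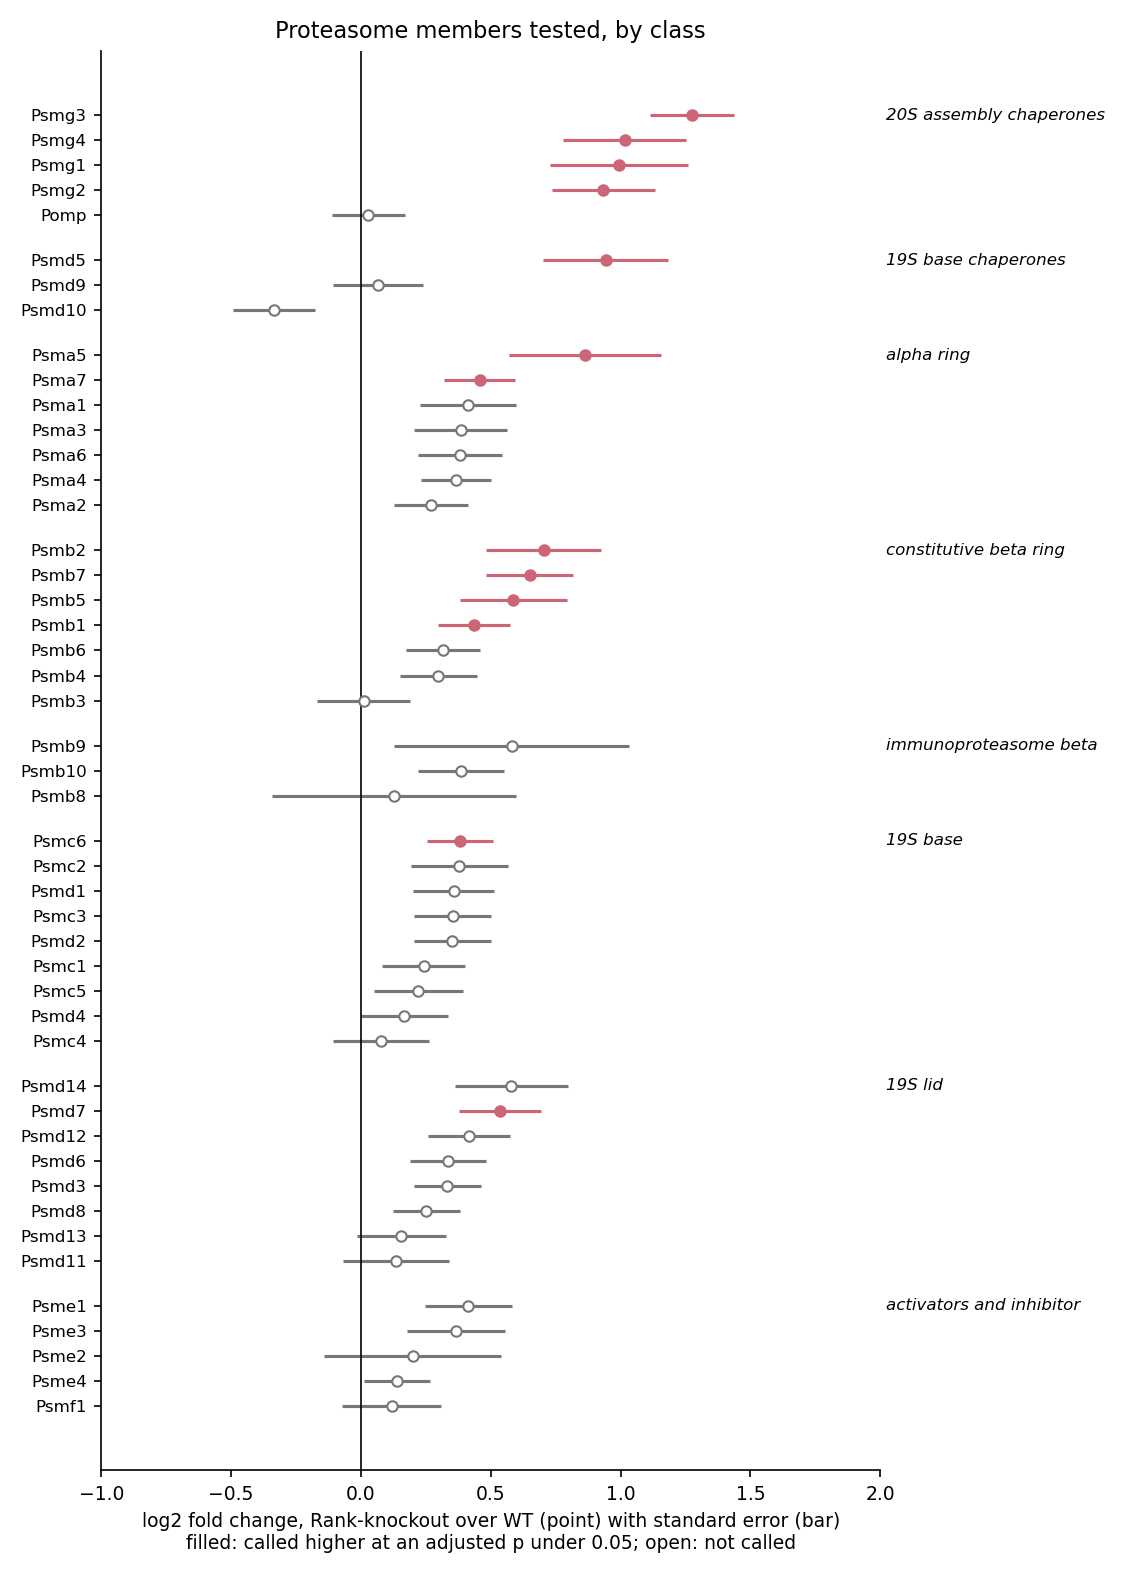
Log2 fold change (Rank-knockout over WT, horizontal axis) of the 47 tested members by class, with points at the edgeR estimate, bars of 1 standard error and filled points for the 13 called higher. All members but Psmd10 lie to the right of 0, and 4 of the 5 chaperones of 20S assembly lie near or above 1 while Pomp lies at 0.03.

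Of all classes, the chaperones of 20S assembly had the largest median log2 fold change, 0.99 over 5 genes. Of these 5, 4 were called higher, beside 15.8% of all genes. Psmg1 and Psmg2 form one pair and Psmg3 and Psmg4 another, and both pairs help the α ring to form. All 4 rose in Rank-knockout with no overlap between genotypes, beside 14.4% of all genes. Psmg3 (ENSMUSG00000029551, chr5:139823592-139826885 on the minus strand, GRCm38) had 58.4, 61.3, 50.1 and 44.2 CPM in WT 1 to 4 and 157, 125, 131 and 108 CPM in Rank-knockout 1 to 4. Every Rank-knockout library was well above the highest WT library. It also had the smallest p of all members, with a fold change of 2.42 and a 95% interval of 0.88 to 1.67 on the log2 scale. The annotation places the gene Gm26938 on the same strand over part of Psmg3, so that reads in the shared part may have been left out of the count.

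Psmg2 (ENSMUSG00000024537) had 34.7, 23.6, 29.1 and 24.4 CPM in WT and 69.5, 47.3, 50.4 and 42.9 in Rank-knockout, a log2 fold change of 0.93 (SE 0.20, adjusted p = 0.00279 by edgeR). Rank-knockout 1 was the highest, and the lowest Rank-knockout library was still above WT 1, the highest of the WT. Psmg4 (ENSMUSG00000071451, chr13:34162964-34178173, plus strand) rested on few reads, with 9 to 34 counts in the WT libraries and 42 to 78 in the Rank-knockout ones. It had 10.2, 8.55, 6.10 and 7.26 CPM in WT and 16.4, 15.6, 19.6 and 14.4 in Rank-knockout, a log2 fold change of 1.02 (SE 0.24, adjusted p = 0.0050 by edgeR). Psmg1 (ENSMUSG00000022913, chr16:95979933-95990960, minus strand) was measured at a like depth, with 13 to 22 and 34 to 83 counts. Its levels were 8.83, 5.53, 10.8 and 9.90 CPM in WT and 17.5, 12.7, 20.5 and 16.0 in Rank-knockout, a log2 fold change of 0.99 (SE 0.27, adjusted p = 0.0104 by edgeR). The lowest Rank-knockout value of Psmg1, in replicate 2, was close to its highest WT value.

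Pomp, the chaperone that acts later and brings the β subunits onto the α ring, was the most abundant member of all and showed no such difference. Pomp (ENSMUSG00000029649, chr5:147860461-147876456, plus strand) had 962, 1157, 1105 and 899 CPM in WT and 1109, 1010, 971 and 1115 in Rank-knockout. The genotypes overlapped throughout, with a log2 fold change of 0.03 (95% interval -0.32 to 0.37, adjusted p = 0.90 by edgeR). The direct difference between Pomp and the Psmg genes was not tested.

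Psmd5, Psmd9 and Psmd10 hold the ATPases of the 19S base while that base is put together, and they differed among themselves. Psmd5 (ENSMUSG00000026869, chr2:34849734-34874968, minus strand) rose from 9.51, 6.28, 10.2 and 7.92 CPM in WT to 14.3, 15.6, 17.8 and 15.4 CPM in Rank-knockout, a log2 fold change of 0.94 (SE 0.24, adjusted p = 0.00799 by edgeR). The genotypes did not overlap, and the WT libraries held 12 to 25 counts of the gene. Psmd10, also known as gankyrin, was the single member with a negative estimate, at 61.2, 78.9, 71.8 and 62.1 CPM in WT and 60.9, 43.9, 58.9 and 54.7 in Rank-knockout. Its groups did not overlap, but WT 1 and Rank-knockout 1 were almost equal, and the log2 fold change of -0.33 (SE 0.16) did not pass the test (adjusted p = 0.12 by edgeR). It was called lower in 1 of the 17 alternative fits, the one on thinned libraries, at -0.53. Psmd9 had a log2 fold change of 0.07 (SE 0.17), with overlapping values of 27.1 to 35.3 CPM in WT and 29.4 to 37.5 in Rank-knockout.

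**Figure D2:**
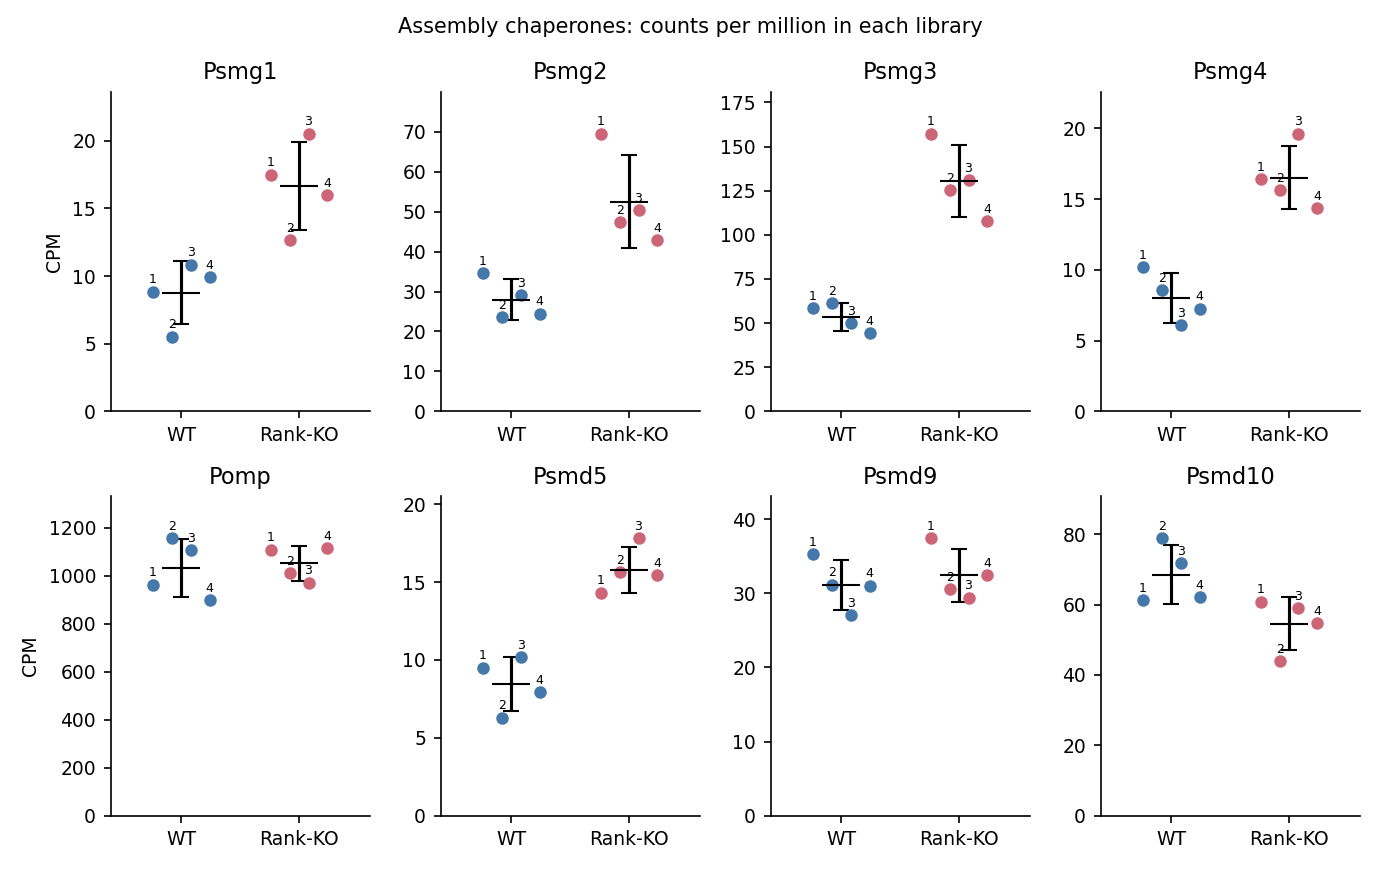
CPM of the 20S and 19S base chaperones in each library (points, numbered by replicate), with the mean and SD of 4 libraries per genotype, each panel on its own linear axis from 0. Psmg1 to Psmg4 and Psmd5 do not overlap between genotypes and are higher in Rank-knockout, Psmd10 does not overlap and is lower, and Pomp and Psmd9 overlap.

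The upstream sequences of 4 members are shown because Psmg3 and Psmg4 had the largest fold changes and because Psmb5 and Psmb6 are catalytic subunits that hold the letters of an antioxidant response element, to which Nfe2l1, the factor known for raising proteasome genes when the proteasome is impaired, can bind. Each is the stretch of 250 bases before the transcript start from RefSeq (GRCm38.p6), 5′ to 3′ on the strand of the gene, with motif matches in capitals. They lie at chr5:139826895-139827144 on the minus strand for Psmg3, chr13:34162714-34162963 on the plus strand for Psmg4, chr14:54617996-54618245 on the minus strand for Psmb5 and chr11:70525107-70525356 on the plus strand for Psmb6.
Psmg3: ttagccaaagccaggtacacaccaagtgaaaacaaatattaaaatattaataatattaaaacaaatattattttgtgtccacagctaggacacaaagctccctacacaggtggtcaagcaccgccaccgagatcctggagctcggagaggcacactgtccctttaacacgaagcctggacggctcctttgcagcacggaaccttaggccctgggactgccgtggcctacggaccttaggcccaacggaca
Psmg4: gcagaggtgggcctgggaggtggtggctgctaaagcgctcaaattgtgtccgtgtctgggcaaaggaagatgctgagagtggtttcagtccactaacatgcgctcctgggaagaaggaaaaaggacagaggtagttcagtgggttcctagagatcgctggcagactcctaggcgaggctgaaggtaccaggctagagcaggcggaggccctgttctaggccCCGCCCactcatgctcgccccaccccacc
Psmb5: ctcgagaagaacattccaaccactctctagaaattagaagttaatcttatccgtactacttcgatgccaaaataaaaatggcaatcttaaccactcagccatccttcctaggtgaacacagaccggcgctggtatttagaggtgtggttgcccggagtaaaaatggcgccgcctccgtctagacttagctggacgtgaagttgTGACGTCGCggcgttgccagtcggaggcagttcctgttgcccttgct
Psmb6: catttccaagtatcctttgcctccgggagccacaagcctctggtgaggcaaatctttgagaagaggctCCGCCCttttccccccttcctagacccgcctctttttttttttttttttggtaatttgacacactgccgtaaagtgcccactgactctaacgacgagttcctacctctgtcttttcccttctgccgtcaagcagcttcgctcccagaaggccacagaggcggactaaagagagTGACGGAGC

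A sequence was found for 42 of the 49 described members, and none for Psmb1, Psmb2, Psmb7, Psmc3, Psmd3, Psmd7 and Psmg2. In these 250 bases, on both strands, the letters TGACNNNGC of the antioxidant response element were in 5 of 42 members (11.9%), beside 11.5% of 27025 genes with a sequence. The 5 were Psmb5, Psmb6, Psmc6, Psmd9 and Psmd12, of which Psmb5 and Psmc6 were called higher. In Psmb5 the match begins 47 bases before the start and in Psmb6 it begins 9 bases before it. The GC box GGGCGG was in 23 members (54.8%, beside 35.4% of all genes), among them Psmg4 and Psmb6, and CCAAT was in 14 (33.3%, beside 37.5%). TTCNNNGAA, the letters of a STAT site, was in 2 (4.8%, beside 8.1%), Psmb8 and Psmg1, although the window of Psmb8 did not meet a transcript start in GENCODE. Nor did the window of Psma7, which is among the members counted for the GC box and for CCAAT. The motif TTCNNNGAA reads the same on both strands and was counted once, and matches of different motifs were counted separately even where letters could be shared. The Psmg3 stretch held none of these motifs, which says only that the letters are not in this window.

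The 7 α subunits, which form the outer rings and the gate of the core, lay between 0.27 and 0.86 on the log2 scale. Of these 7, 2 were called higher, beside 15.8% of all genes. Psma7 (ENSMUSG00000027566, chr2:180036374-180042433, minus strand) had 210, 253, 263 and 207 CPM in WT and 342, 327, 319 and 294 in Rank-knockout. The groups did not overlap, with a log2 fold change of 0.46 (SE 0.14, adjusted p = 0.0184 by edgeR), and the call was lost without WT 1 or WT 4. Psma5 had 35.3, 13.3, 45.4 and 23.1 CPM in WT and 43.2, 58.4, 45.5 and 56.7 in Rank-knockout. Its estimate was larger, 0.86 (SE 0.29, adjusted p = 0.0395 by edgeR), but WT 3 lay within the range of the Rank-knockout libraries, and the call was lost without any 1 of 6 libraries, all except WT 1 and WT 3. Of the stretches of 50 bases in the last 300 bases of its coding transcripts, 57.8% also occur in the pseudogenes Gm12989 and Gm8394, so its count is uncertain, although these 2 genes had 1 and 3 counts themselves.

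The other α subunits did not pass edgeR's test. Their log2 fold changes were 0.41 for Psma1, 0.27 for Psma2, 0.38 for Psma3, 0.37 for Psma4 and 0.38 for Psma6. Psma4 (adjusted p = 0.0513 by edgeR) and Psma3 (adjusted p = 0.12 by edgeR) had groups that did not overlap. Psma4 was called higher by limma-voom (adjusted p = 0.0475), with a CPM minimum of 5 and without Rank-knockout 4, and Psma1 without WT 3. Of the 7 α subunits, DESeq2 called 2, limma-voom 3 and library totals 7, all higher. These fits called 11.7%, 14.6% and 26% of the genes each tested higher.

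Of the 7 β subunits of the constitutive core, 4 were called higher by edgeR, beside 15.8% of all genes. DESeq2 called 3 of them higher, beside 11.7% of the genes it tested. Psmb7, which carries the trypsin-like site (ENSMUSG00000026750, chr2:38588036-38644087, minus strand), had 51.6, 49.5, 58.9 and 40.9 CPM in WT and 94.8, 63.3, 79.4 and 76.9 in Rank-knockout. The groups did not overlap, and the log2 fold change was 0.65 (SE 0.17, adjusted p = 0.00846 by edgeR). Psmb5, which carries the chymotrypsin-like site (ENSMUSG00000022193, chr14:54614119-54618022, minus strand), was low, with 18.3, 13.1, 14.9 and 13.9 CPM in WT and 20.2, 24.2, 19.2 and 25.4 in Rank-knockout. Its groups were close but apart, with a log2 fold change of 0.59 (SE 0.21, adjusted p = 0.041 by edgeR). The call was lost in 6 of the 8 fits that left out 1 library (WT 2, 3 or 4, or Rank-knockout 1, 2 or 4), with DESeq2, with thinned libraries and without the filter on low counts. At its 3′ end 51.4% of the 50-base stretches also occur in the pseudogene Gm3375, which had 0 counts.

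Psmb6, which carries the caspase-like site (ENSMUSG00000018286, chr11:70525367-70527858, plus strand), was far more abundant, with 256, 348, 306 and 246 CPM in WT and 390, 363, 355 and 334 in Rank-knockout. WT 2 lay within the Rank-knockout range, and its log2 fold change of 0.32 (SE 0.14) did not pass the test (adjusted p = 0.11 by edgeR), although it was called without WT 2 and with library totals. Psmb2, a β subunit without a catalytic site, had 19.7, 13.8, 27.1 and 17.8 CPM in WT and 36.4, 25.7, 29.4 and 31.9 in Rank-knockout, a log2 fold change of 0.70 (SE 0.22, adjusted p = 0.0241 by edgeR). WT 3 was above Rank-knockout 2, and the call was lost without WT 1, WT 2, WT 4 or Rank-knockout 1 and with thinned libraries. Psmb1 rose by 0.44 (SE 0.14, adjusted p = 0.025 by edgeR) with no overlap, from 212 ± 26.8 to 288 ± 21.5 CPM (SD, n = 4 each), and its call was lost without WT 1, WT 3, WT 4, Rank-knockout 2 or Rank-knockout 3. Psmb4 (0.30) and Psmb3 (0.01) were not called, and for Psmb3 51.4% of the 50-base stretches at the 3′ end occur in other genes.

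Added together, the 14 subunits of the constitutive core had 1559, 1805, 1879 and 1480 CPM in WT and 2338, 2127, 2133 and 2082 in Rank-knockout. The means were 1681 ± 192 and 2170 ± 114 CPM (SD, n = 4 each), the ratio of the means was 1.29, and the groups did not overlap. Although these subunits enter the particle in equal numbers, their mean levels over the 8 libraries ran from 18.6 CPM for Psmb5 to 346 CPM for Psmb4. In 3′ libraries a transcript gives about 1 tag whatever its length, so these levels can be set beside each other without a length correction, apart from tags lost at shared 3′ ends.

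Of the immunoproteasome subunits, Psmb8 and Psmb9 varied more between libraries of 1 genotype than between genotypes. None of the 3 was called with all libraries by edgeR, DESeq2 or limma-voom, beside 15.8%, 11.7% and 14.6% of the genes each tested called higher. At an unadjusted p under 0.05 in edgeR 1 of 3, Psmb10, was higher, beside 21.8% of all genes. With library totals, and with totals that omit the 50 top genes, 1 of 3, Psmb10, was called higher, beside 26% and 22% of all genes. Psmb8 (ENSMUSG00000024338, chr17:34197721-34201454, plus strand), the replacement for Psmb5, had 107, 61.1, 209 and 134 CPM in WT and 110, 159, 62.9 and 217 in Rank-knockout. Its log2 fold change was 0.13 with a 95% interval of -1.02 to 1.27 (adjusted p = 0.87 by edgeR), which is wide on both sides of 0. Psmb9 (ENSMUSG00000096727, chr17:34181987-34187764, minus strand), the replacement for Psmb6, lies 9957 bases from Psmb8. It had 55.0, 35.9, 145 and 80.6 CPM in WT and 89.7, 135, 70.9 and 167 in Rank-knockout, a log2 fold change of 0.58 (95% interval -0.53 to 1.69, adjusted p = 0.37 by edgeR). Psmb9 was called higher by edgeR without WT 3, at 1.04 (adjusted p = 0.0471), and with any 1 library left out its estimate ran from 0.30 to 1.04. Both genes were highest in WT 3 among the WT libraries and in Rank-knockout 4 among the others.

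Psmb10 (ENSMUSG00000031897, chr8:105935735-105938444, minus strand), the replacement for Psmb7, was steadier and higher than these, with 277, 209, 303 and 238 CPM in WT and 298, 398, 264 and 377 in Rank-knockout. The groups overlapped, and its log2 fold change of 0.39 (SE 0.16) did not pass the test (adjusted p = 0.086 by edgeR). The ratio of the summed counts of Psmb8, Psmb9 and Psmb10 to those of Psmb5, Psmb6 and Psmb7 was 1.34, 0.745, 1.73 and 1.504 in WT and 0.984, 1.54, 0.877 and 1.74 in Rank-knockout. On the log2 scale this was 0.34 ± 0.53 against 0.30 ± 0.48 (SD, n = 4 each), a difference of -0.04 that is much smaller than the spread within either genotype. The sign of this difference turned when WT 3, WT 4, Rank-knockout 1 or Rank-knockout 3 was left out.

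Most of the interferon and antigen presentation genes that were read had their highest value in the same libraries. The order was read, after the values of some had been seen, in 13 genes, which were the 3 immunoproteasome subunits, Psme1, Psme2 and the 8 tested genes of a list for interferon and antigen presentation. WT 3 was the highest WT library for 12 of them and WT 2 the lowest for 10, beside 24.6% and 28.0% of all genes tested. Rank-knockout 4 was the highest Rank-knockout library for 10 and Rank-knockout 3 the lowest for 11, beside 27.8% and 23.7% of all genes tested. Tapbp and Psme1 departed most from this order, since Tapbp was highest in WT 2 and both were highest in Rank-knockout 2 and lowest in Rank-knockout 1. Cd74, the invariant chain of class II, which was in the myeloid list and not among the 13, was highest in WT 4 and Rank-knockout 2. Tap1, a peptide transporter of antigen presentation, had 78.1, 83.2, 165 and 116 CPM in WT and 90.1, 174, 80.7 and 202 in Rank-knockout. Of the 13 genes, Tapbp and B2m were called between genotypes, both lower in Rank-knockout.

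**Figure D3:**
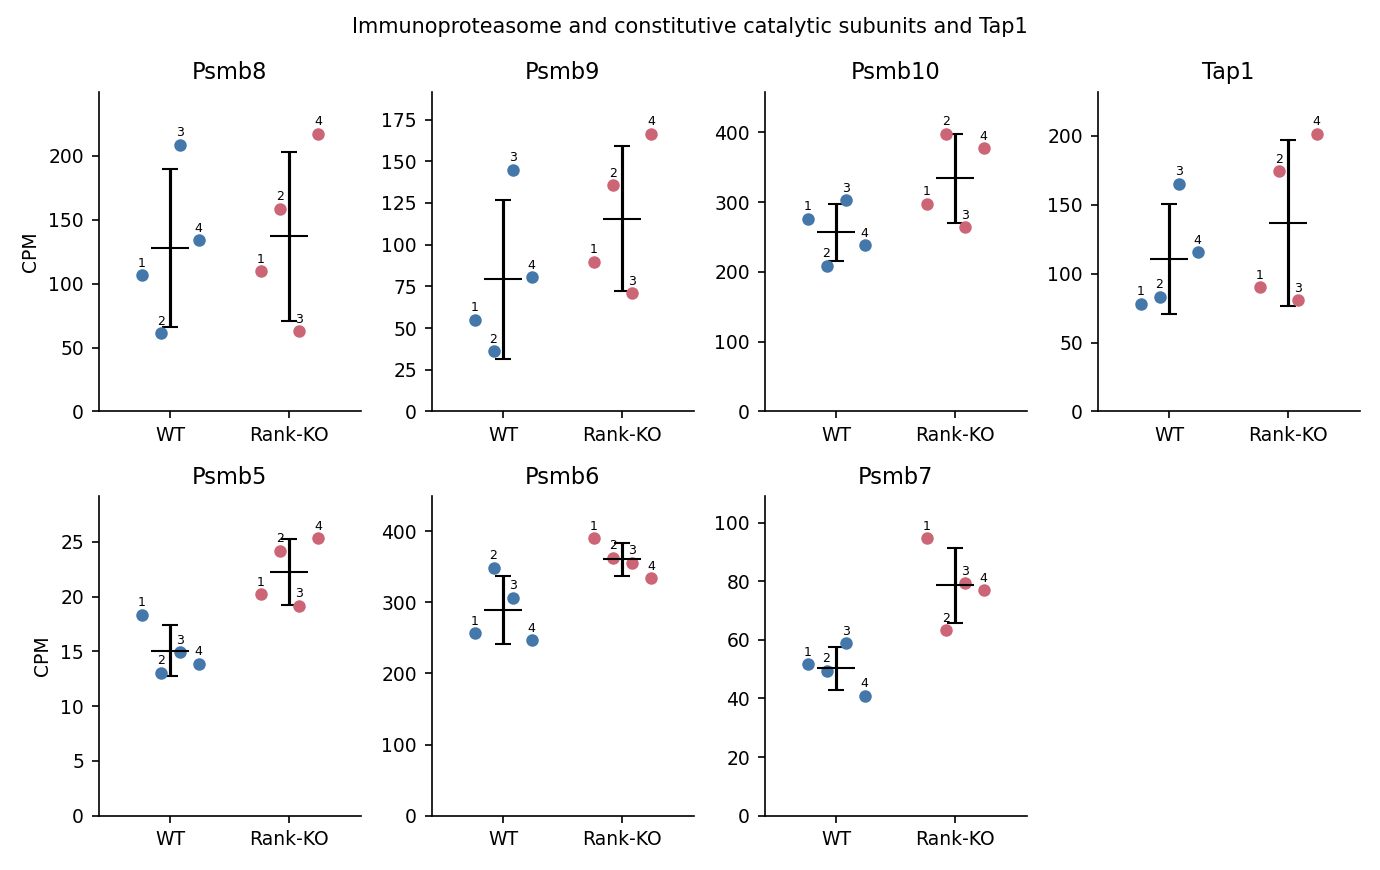
CPM of the 3 immunoproteasome subunits, their 3 constitutive partners and Tap1 in each library (points, numbered by replicate), with the mean and SD of 4 libraries per genotype, each panel on its own linear axis from 0. Psmb8, Psmb9 and Tap1 spread over at least 2-fold within each genotype with WT 3 and Rank-knockout 4 on top, while Psmb5 and Psmb7 separate the genotypes.

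The list of interferon and antigen presentation genes outside the members had 8 genes tested. Of these, 0 were called higher and 2 lower, beside 15.8% and 14.6% of all genes. The 2 lower were Tapbp, which loads peptides onto class I molecules (log2 fold change -0.71, adjusted p = 0.00228 by edgeR), and B2m, the light chain of class I (log2 fold change -0.77, adjusted p = 0.00482 by edgeR). The list's median was -0.15, and Tap1 (0.32) and Erap1 (0.17) did not pass the test. No marker of immune cells that was tested was called higher, beside 15.8% of all genes. Of 11 T cell markers 7 were tested and 0 called by edgeR, DESeq2 or limma-voom (1 at an unadjusted p under 0.05, Gzma at -0.45), with 236 to 359 CPM in sum in WT and 163 to 270 CPM in Rank-knockout. Of 8 markers of B and plasma cells, 2 were tested and Igkc was called lower (limma-voom also called Igha lower, at -1.49 and an unadjusted p of 0.022 in edgeR), with 56.2 to 153 CPM in sum in WT and 9.81 to 53.2 CPM in Rank-knockout, and Cd79a was at 0 in every library. Of 8 myeloid markers only Cd74 was tested and it was not called, with Adgre1 at 0 and sums of 45.5 to 174 and 33.5 to 283 CPM, and of 9 markers of stroma, muscle and endothelium only Vim was tested and not called, with Cdh5 at 0 and sums of 10.6 to 19.4 and 6.24 to 18.2 CPM. The part of such cells in the spread of the immunoproteasome genes was not tested.

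Of the 17 subunits of the 19S particle, 2 were called higher (11.8%, beside 15.8% of all genes), 1 in the base and 1 in the lid. In the base, the ATPase Psmc6 (ENSMUSG00000021832, chr14:45329788-45349705, plus strand) had 93.8, 98.8, 103 and 98.4 CPM in WT and 133, 134, 123 and 123 in Rank-knockout. The libraries of each genotype were nearly equal and the groups did not overlap, with a log2 fold change of 0.38 (SE 0.13, adjusted p = 0.0335 by edgeR). The call was lost without WT 1, WT 2, WT 3, WT 4, Rank-knockout 1, Rank-knockout 2 or Rank-knockout 3, so it held only without Rank-knockout 4, and it was also lost with thinned libraries and without the filter on low counts. The other ATPases had log2 fold changes of 0.38 for Psmc2, 0.35 for Psmc3, 0.24 for Psmc1, 0.22 for Psmc5 and 0.08 for Psmc4, and none was called with all libraries by edgeR, DESeq2 or limma-voom, while Psmc3 was called by edgeR without WT 2. Among the base subunits that are not ATPases, the scaffolds Psmd1 and Psmd2 had 0.36 and 0.35, and the ubiquitin receptor Psmd4 had 0.17. Psmd2 was called higher with thinned libraries, and library totals called 6 of the 9 base subunits higher, beside 26% of all genes.

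In the lid, Psmd7 (ENSMUSG00000039067, chr8:107580381-107588464, minus strand), the partner of the deubiquitinase Psmd14, had 156, 182, 134 and 126 CPM in WT and 229, 241, 231 and 169 in Rank-knockout. Rank-knockout 4 fell below WT 2, and the log2 fold change was 0.54 (SE 0.16, adjusted p = 0.0175 by edgeR). The call was lost without WT 1, WT 3, WT 4, Rank-knockout 2 or Rank-knockout 3. Psmd14, which cuts ubiquitin chains off substrates, had 42.8, 21.9, 44.7 and 25.1 CPM in WT and 53.9, 44.3, 49.5 and 47.9 in Rank-knockout. Its estimate of 0.58 (SE 0.22) was the largest in the lid and just missed the threshold (adjusted p = 0.0547 by edgeR), and WT 3 lay above Rank-knockout 2. It was called higher by limma-voom (adjusted p = 0.032), without the filter on low counts, with library totals, with totals that omit the 50 top genes, and without WT 1 or WT 3.

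The remaining lid subunits had log2 fold changes of 0.42 for Psmd12, 0.34 for Psmd6, 0.33 for Psmd3, 0.25 for Psmd8, 0.16 for Psmd13 and 0.14 for Psmd11. Psmd12, Psmd6, Psmd3 and Psmd8 were higher without overlap between genotypes, beside 14.4% of all genes. These 4 were not called by edgeR, with adjusted p from 0.0556 to 0.15. DESeq2 called Psmd3 (adjusted p = 0.0265), and limma-voom called Psmd3 (adjusted p = 0.0442) and Psmd12 (adjusted p = 0.0498). Of the 8 lid subunits, edgeR called 1, DESeq2 2, limma-voom 4 and library totals 6, all higher. These fits called 15.8%, 11.7%, 14.6% and 26% of the genes each tested higher. Psmd3 was the most abundant subunit of the 19S particle and had little spread, at 511 ± 22.6 CPM against 643 ± 30.6 CPM in Rank-knockout (SD, n = 4 each, adjusted p = 0.0588 by edgeR). The 17 base and lid subunits together had 3591, 4367, 3694 and 3174 CPM in WT and 4622, 4647, 4647 and 4068 in Rank-knockout. The means were 3706 ± 494 and 4496 ± 286 CPM (SD, n = 4 each), the ratio of the means was 1.21, and Rank-knockout 4 lay below WT 2. Whether the core and the 19S particle differed from each other was not tested.

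**Figure D4:**
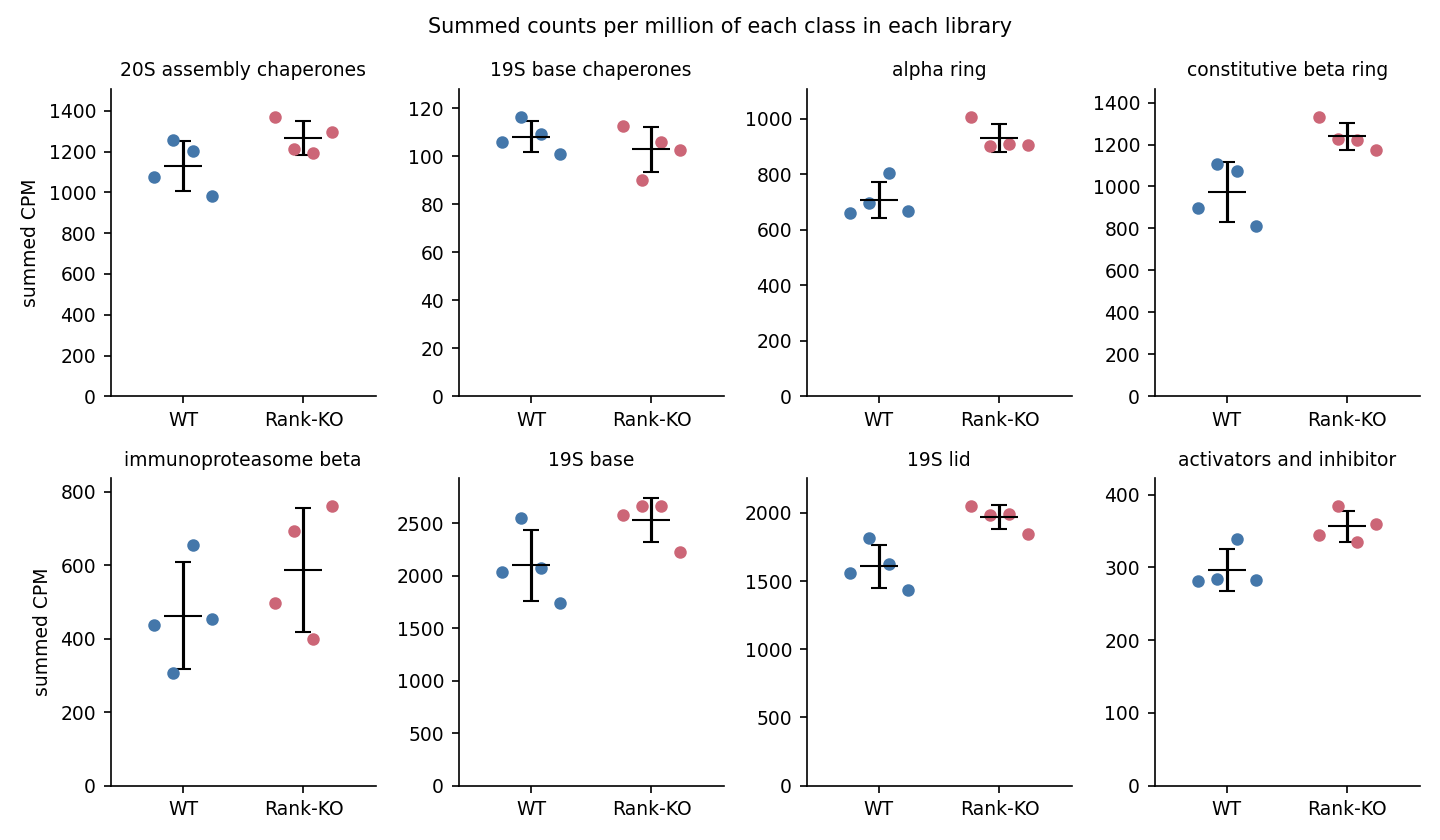
Summed CPM of each class of members in each library (points), with the mean and SD of 4 libraries per genotype and linear axes from 0. The α ring and the constitutive β ring do not overlap between genotypes, the lid does not overlap, and the base, the chaperone classes, the immunoproteasome subunits and the activators do.

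The activators that open the core, and its inhibitor, were not called with all libraries by edgeR, DESeq2 or limma-voom. These fits called 15.8%, 11.7% and 14.6% of the genes each tested higher. At an unadjusted p under 0.05 in edgeR 1 of 5, Psme1, was higher, beside 21.8% of all genes. Library totals called 3 of 5 higher, beside 26% of all genes. Psme1, a subunit of the interferon-inducible activator PA28, had 88.3, 97.03, 119 and 78.6 CPM in WT and 101, 154, 119 and 137 in Rank-knockout, a log2 fold change of 0.41 (95% interval 0.01 to 0.82, adjusted p = 0.070 by edgeR). The groups overlapped, with WT 3 inside the Rank-knockout range, and Psme1 was called higher without Rank-knockout 1 and, with all libraries, without the filter on low counts. Its partner Psme2 had 0.20 (SE 0.34), and 58.8% of the 50-base stretches at its 3′ end also occur in Psme2b or the pseudogene Gm7928, which makes Psme2 and Psme2b uncertain. The nuclear activators Psme3 (0.37) and Psme4 (0.14) did not pass the test, though Psme3 was called without Rank-knockout 4. The inhibitor Psmf1 had 15.6, 18.4, 17.6 and 17.2 CPM in WT and 20.8, 17.9, 17.8 and 18.3 in Rank-knockout, which overlap, with a log2 fold change of 0.12 (95% interval -0.35 to 0.59, adjusted p = 0.67 by edgeR).

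**Figure D5:**
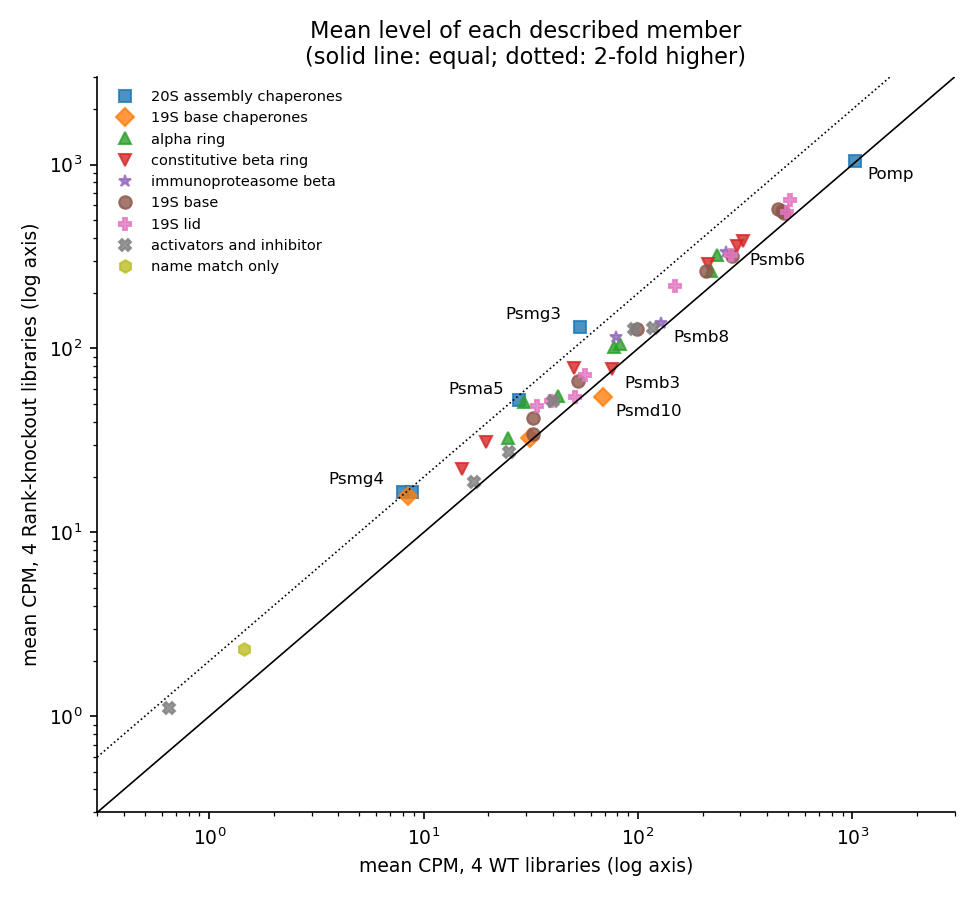
Mean CPM of each described member in 4 Rank-knockout libraries against 4 WT libraries, on log axes, with a solid line where the means are equal and a dotted line where Rank-knockout is 2-fold higher. Nearly all members lie between the lines across their range of levels, Psmg3 and Psmg4 lie above the dotted line, and Pomp, the most abundant, lies near the solid line.

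Partners of the proteasome outside the naming rule were read from a list of 16 genes, of which 13 were tested, 2 were called higher and 0 lower, with a median log2 fold change of 0.18. That share is near the 15.8% of all genes called higher, and library totals called 5 of the 13 higher, beside 26% of all genes. Usp14, a deubiquitinase bound to the 19S particle, had 37.4, 40.7, 30.5 and 44.9 CPM in WT and 73.1, 55.5, 57.1 and 62.2 in Rank-knockout, a log2 fold change of 0.69 (SE 0.17, adjusted p = 0.00622 by edgeR). Rad23b, which carries ubiquitin-tagged proteins to the proteasome, had 428, 426, 405 and 350 CPM in WT and 617, 583, 648 and 521 in Rank-knockout, a log2 fold change of 0.56 (SE 0.14, adjusted p = 0.00658 by edgeR). Neither gene overlapped between genotypes. Uchl5, another deubiquitinase of the particle (0.42, adjusted p = 0.092 by edgeR), and Sem1, a small lid subunit (0.49, adjusted p = 0.14 by edgeR), did not pass the test. Paaf1 was not analysed here.

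Of 10 tested regulators known to act on proteasome genes, 0 were called higher and 1 lower, beside 15.8% and 14.6% of all genes. Their median log2 fold change was -0.03. Nfe2l1 had 96.5, 56.1, 75.2 and 84.5 CPM in WT and 77.1, 77.8, 69.6 and 86.0 in Rank-knockout, with a log2 fold change of 0.01 (95% interval -0.41 to 0.42, adjusted p = 0.97 by edgeR). The groups overlapped throughout, and a transcript level does not give the activity of this factor, which is processed as a protein. Mafk, a small Maf protein that pairs with it, was called lower (-0.73, SE 0.23, adjusted p = 0.0278 by edgeR), a call not made with library totals, and the related Mafg (-0.26) and the CCAAT-binding subunit Nfyb (0.23) were not called. With library totals Nfyb was called higher (0.43, adjusted p = 0.0461 by edgeR). Of 4 tested genes for ubiquitin and its activation, among them Ubb (-0.23), Uba6 (0.17) and Uba1 (0.07), edgeR called 0. It also called 0 of 8 for the segregase p97 and its cofactors, among them Vcp itself (0.06), Nsfl1c (0.46), Ufd1 (-0.18) and Ubxn4 (-0.07). Of all genes it called 15.8% higher and 14.6% lower. In both lists DESeq2 and limma-voom also called 0, beside 11.7% and 14.6% of the genes each tested called higher. In edgeR 0 genes of both lists had an unadjusted p under 0.05, beside 21.8% of all genes higher.

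Members lie on 16 chromosomes, and 6 lie within 10 kb of another member. These are the pairs Psmb5 and Psmb11, Psmb8 and Psmb9, and Psme1 and Psme2. At the 3′ end, 35 of the 49 members shared no stretch of 50 bases with another gene, and 6 shared more than 50% of them, Psma5, Psmb3, Psmb5, Psmd1, Psme2 and Psme2b. Reads at such ends may have been split or left out. The spread between libraries of 1 genotype was like that of other genes. For the 30 members with a mean above 50 CPM, the median coefficient of variation was 15.4% in WT and 11.7% in Rank-knockout, beside 15.1% and 13.3% for all 3632 genes above that level. Relative to each member's mean over the 8 libraries, the median member was at -0.17, -0.16, -0.05 and -0.37 on the log2 scale in WT 1 to 4 and at 0.22, 0.17, 0.18 and 0.11 in Rank-knockout 1 to 4. WT 4 was the lowest library of all.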

How the data were processed

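QuantSeq 3′ mRNA libraries were made from intestinal epithelial cells of 4 WT and 4 Rank-knockout mice at lactation day 5, with 1 library per mouse. According to the methods of the study, the authors used BBDuk for trimming, bowtie2 to filter out abundant sequences, STAR for alignment to GRCm38/mm10, and featureCounts to count sense reads per Ensembl gene. The deposited values are raw counts per gene without normalization. No molecular identifiers are named, so PCR copies count as reads. The mm10 build is also given in the submitters' processing notes. No columns of other samples were present, and no row named a total or an unassigned class.

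Of 54532 gene identifiers, 54495 were found in GENCODE M21 (GRCm38), from which symbols and positions were taken. The test was edgeR 4.0.16 (R 4.3.3), by the robust quasi-likelihood F-test for genotype, without covariates, on the 9855 genes that filterByExpr kept, with TMM factors. Benjamini-Hochberg adjustment covered these 9855 genes, and the threshold was 0.05. Standard errors were taken from the F statistic. Intervals are 95%, with degrees of freedom from the number of libraries alone. The test shares information between genes and can have more, so an interval can span 0 where the unadjusted p is under 0.05. CPM values use the TMM-adjusted library sizes, whose factors were 0.918 to 0.961 in WT and 1.06 to 1.10 in Rank-knockout. The alternatives were leaving out 1 library at a time, blocking on the replicate number, thinning to the shallowest total, limma-voom (limma 3.58.1), DESeq2 1.42.0, a minimum mean of 5 CPM, no filter, and scaling by RLE factors, by library totals or by totals that omit the 50 top genes. The fit was tested on simulated data with 200 changed genes, far fewer than were called in these data. There, differences of 2-fold were mostly recovered and differences of 1.5-fold rarely. With so few changed genes the adjusted threshold was stricter, so these shares do not carry over to these data. A member not called may still differ. The share of false calls among the simulated calls lay above the nominal rate, more so for the smaller differences, and the pass criterion for that case was relaxed after it had failed. Promoter motifs were searched in RefSeq sequences (an interferon regulatory factor motif was searched too and is not reported here), and 3′ ends were compared between GENCODE transcripts as stretches of 50 bases.

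The members, classes and lists were chosen with earlier results of these data known. Every member with at least 20 counts was named with its value. Values in each library were printed for the smallest p and the largest fold change of each class, for the 3 immunoproteasome and the 3 constitutive catalytic subunits, Pomp and Psmf1. Up to 4 genes of each pathway list were named, called genes first and then by p, and Nfe2l1 always. Some genes of these lists are not reported here by name. Library totals lay between 1530781 and 4335653 counts, with 1616024 or fewer in 3 of the 4 WT libraries, so genes with few counts were measured less precisely there.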

Additional observations from a re-analysis of the deposited data

Results flagged for a closer look

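In 102 sets of 4 libraries (the CPM of each of the 49 members with at least 20 counts, the log2 ratio of immunoproteasome to constitutive subunits and the total counts, in each genotype), 1 library stood apart from the other three in 3 sets, where chance gives about 5.1. Psmd7 was at 169 CPM in Rank-knockout 4, while the nearest of the others was at 229 CPM and the highest at 241 CPM. Psmf1 was at 20.8 CPM in Rank-knockout 1, while the nearest of the others was at 18.3 CPM and the lowest at 17.8 CPM. The total was 4335653 counts in WT 2, beside 1616024 in the next WT library and 1530781 in the lowest.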

How the results depend on the processing

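With library totals 34 members were called higher and 31 with totals that omit the 50 top genes, and over all genes library totals gave 2566 higher and 859 lower in place of 1555 and 1438. Leaving out each library in turn gave 6 to 13 members higher, 0 lower, 1020 to 1718 genes higher and 1097 to 1564 lower. With thinned libraries 10 members were called higher and 1 lower (Psmd10), and every other alternative called 13 to 17 members higher and 0 lower. Of the 13 calls, 13 were kept under RLE factors, library totals, totals without the top genes, the CPM minimum and limma-voom, 12 under DESeq2, 11 without the filter and 8 with thinned libraries. The log2 ratio of immunoproteasome to constitutive subunits, -0.04, was -0.14 as the mean of the 3 pairs, -0.13 with thinned libraries and -0.30 to 0.12 with a library left out. The mean of paired differences, also -0.04, equals the main value by arithmetic and is no check on it.

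Replicate numbers are shared between genotypes, but deviations of same-numbered libraries correlated at 0.05, 0.15, -0.14 and 0.32, so the numbers were not taken as pairs, and not every library correlated best with its own number. With the replicate block 14 members were called higher and 12 of the 13 calls were kept, Psma5 being lost and Psmd14 and Psme1 gained, and 1708 genes were called higher and 1602 lower.

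Members that were not called turned sign under some alternatives. Psmb3 was at -0.0041 with RLE factors and -0.0080 with DESeq2, Psmc4 at -0.11 and Psmf1 at -0.075 with thinned libraries. With a library left out, estimates ran from -0.056 to 0.15 for Psmc4, -0.0100 to 0.11 for Psmd9, -0.070 to 0.22 for Psmd11, -0.064 to 0.080 for Pomp, -0.095 to 0.44 for Psme2, -0.14 to 0.22 for Psmb3 and -0.19 to 0.46 for Psmb8. The cause was not tested. Depth limits Psmg1, Psmg4, Psmd5 and Psmb5, which had 9 to 52 counts in the WT libraries.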
